A study of Mus musculus with 6 samples.

Results

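The genes described here encode 9 transcription factors of the macrophage lineage: Spi1, Cebpa, Cebpb, Cebpd, Maf, Irf8, Klf2, Klf4 and Bhlhe40. These genes were chosen by name, with earlier results of these data known. They are 9 of the 24454 gene symbols in the deposited count table, and counts of rows with the same symbol were summed. RNA came from cultured peritoneal macrophages, which clear particles and microbes in the abdomen, taken from male wild-type C57BL6/J mice aged 6 to 8 weeks, and polyA-enriched RNA was sequenced in 6 libraries. In the SGA360+LPS group (2 libraries) cells received 10 µM SGA360, a selective modulator of the aryl hydrocarbon receptor, for 1 h and then LPS at 10 ng/ml for 4 h. In the LPS group (2 libraries) cells received LPS, a bacterial endotoxin sensed through Toll-like receptor 4, at 10 ng/ml for 4 h, and the labels give it no vehicle pretreatment. In the vehicle group (2 libraries) cells received vehicle for 5 h. Nothing in the labels tells if replicate libraries stem from different animals or culture dishes, and p-values here cover just the variation among these samples, possibly technical.

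PU.1, the ETS-family protein encoded by Spi1, opens and marks myeloid enhancers together with C/EBP proteins, and its dose steers progenitors towards macrophages. C/EBP alpha, beta and delta are basic leucine zipper proteins, of which beta and delta are known for their part in the acute inflammatory response. c-Maf, encoded by Maf, favours Il10 and complement C1q expression and restrains self-renewal of mature macrophages, while IRF8 partners PU.1 on composite sites. KLF2 and KLF4 are zinc finger factors known for tempering inflammatory gene expression or shaping monocyte fate, and BHLHE40 is a basic helix-loop-helix repressor of Il10 and, in peritoneal macrophages, of Maf.

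Total counts per library ran from 7726973 to 9529817. Vehicle replicate 1 stood apart, with 10001 genes detected and 4.92% of its reads on the ribosomal gene Rn45s, where the remaining 5 libraries had 12282 to 12643 genes and 0.22% to 0.684%. The 10 macrophage markers in the table summed to 25351 and 29069 CPM (counts scaled by TMM to libraries of equal size) in the SGA360+LPS libraries, 26143 and 30340 in the LPS libraries and 25193 and 27302 in the vehicle libraries, with Itgam at 0. Lyz2 alone made up most of these macrophage sums, at 18255 to 22238 CPM. The cultures also held RNA of other cells. The 8 fibroblast markers summed to 5209.6 and 4738 CPM in SGA360+LPS, 4727 and 4419.5 in LPS and 4682 and 5382 in vehicle (Pdgfrb at 0), mostly from Col1a1, Col1a2 and Col3a1. The 10 mesothelial markers summed to 309.95 and 323 CPM in SGA360+LPS, 316 and 315 in LPS and 454 and 439 in vehicle (Gpm6a and Nkain4 at 0). Itgam, Pdgfrb, Gpm6a and Nkain4 have several transcript rows each, and their 0 is not read here as a lack of expression.

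Only 6 of the 9 factors could be tested: Spi1, Cebpd, Maf, Klf4, Bhlhe40 and Klf2, each with 1 transcript row. Cebpa has 5 rows and Cebpb 3 rows, and every one of them was at 0 in all 6 libraries. Irf8 has 2 rows, with 13 counts in vehicle replicate 1, 1 count in vehicle replicate 2 and 0 in the LPS and SGA360+LPS libraries. Zeros were common for genes listed with several rows: 51.0% of 5639 such symbols had no count at all, where the share was 37.1% for the 18815 symbols listed once, and the several-row symbols held 1.87% of all counts. Among the 2596 symbols whose several rows share 1 start and 1 end, the share at 0 was 64.8%. The 3 rows of Cebpb share a start and an end, as do 4 of the 5 rows of Cebpa. A 0 in these rows is not read here as a lack of expression, and no level is given for Cebpa, Cebpb or Irf8.

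With LPS, the 6 tested factors split. Spi1 and Cebpd rose to 2.28-fold and 3.50-fold their vehicle level, while Maf, Klf4 and Bhlhe40 fell to 0.390, 0.483 and 0.715 of it, and Klf2 did not pass the test. Thus 2 rose and 3 fell by edgeR's quasi-likelihood test (Benjamini-Hochberg adjusted p under 0.05 over 9389 genes tested), where 19.4% of all tested genes rose and 17.0% fell, 36.4% in all. With total counts in place of TMM scaling, 13.6% of all genes rose and 23.2% fell, and the same 2 rose and 3 fell. As the factors were chosen with earlier results of these data known, these counts do not test the factors as a group. SGA360 given before LPS left no factor past the test against LPS alone, where 0.0746% of all genes were called. The plot of levels by library shows these groups. Libraries that do not overlap with vehicle are common in these data. Of all tested genes, 65.9% had no overlap between LPS and vehicle, and 64.9% had none between SGA360+LPS and vehicle.

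**Figure D1:**
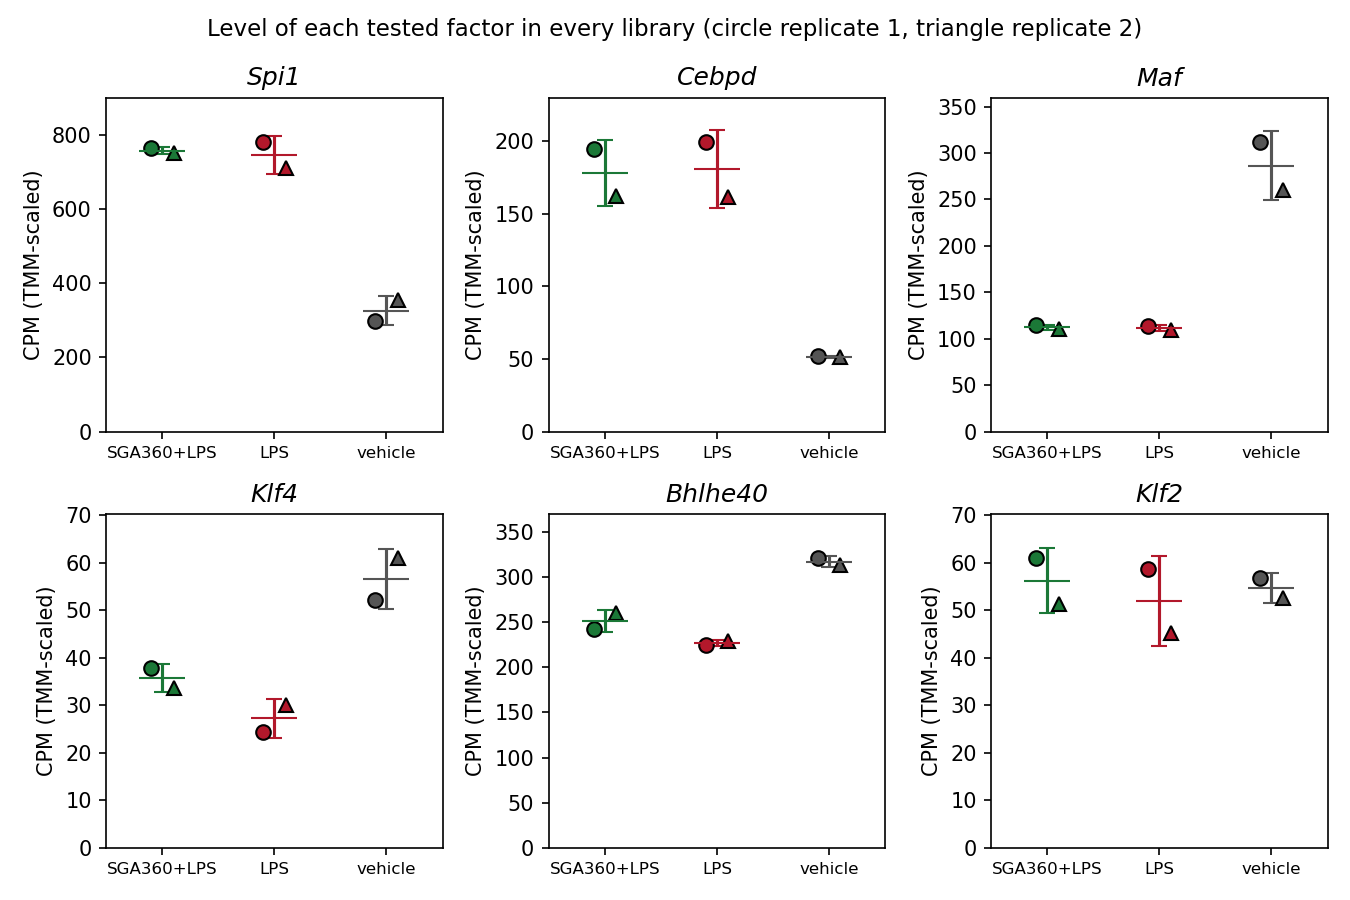
Level of the 6 tested factors in CPM (vertical axes, from 0) in the SGA360+LPS, LPS and vehicle groups; points are libraries, horizontal lines the group means and bars the SD of n = 2. Spi1 and Cebpd lie higher in all 4 LPS-treated libraries than in the vehicle libraries, Maf, Klf4 and Bhlhe40 lower, and the 3 groups of Klf2 overlap.

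Spi1 (NM_011355 in the deposited table; mm10 chromosome 2, 91096797 to 91115756, plus strand, protein-coding) was the most abundant tested factor per base of exon in every group. By CPM it lay below Bhlhe40 (321) and Maf (312) in vehicle replicate 1. It stood at 764 and 751 CPM in the SGA360+LPS libraries, 782 and 710.1 CPM in the LPS libraries and 299 and 354 CPM in the vehicle libraries. All 4 LPS-treated libraries lay above both vehicle libraries, and the SGA360+LPS and LPS libraries overlapped. The log2 fold change was 1.19 (SE 0.09; adjusted p = 2.67e-06) for LPS against vehicle and 1.21 (SE 0.09; adjusted p = 2.52e-06) for SGA360+LPS against vehicle. For SGA360+LPS against LPS it was 0.02, with a 95% interval from -0.17 to 0.21.

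Cebpd (NM_007679; chromosome 16, 15887286 to 15889545, plus strand, protein-coding) rose most of the 6. It stood at 194 and 162 CPM with SGA360+LPS and 199.7 and 162 CPM with LPS, against 52.0 and 51.1 CPM in vehicle. The vehicle pair was tight and far below the other 4 libraries, and in both LPS-treated groups replicate 1 was the higher one. The log2 fold change was 1.81 (SE 0.12; adjusted p = 1.62e-06) for LPS against vehicle, 1.79 (SE 0.12; adjusted p = 1.94e-06) for SGA360+LPS against vehicle, and -0.02 (95% interval -0.28 to 0.24) for SGA360+LPS against LPS. The 3' end of its span overlaps that of Spidr on the other strand, and without knowing whether counting used strand, reads of the overlap cannot be told apart.

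As related genes could share reads, the coding sequences of paralogs were searched for their longest identical stretch (GENCODE M21, without the stop codon). Cebpd and Cebpb, which encode nearly the same basic DNA-binding region, share at most 27 bases, at coding positions 613 to 639 of Cebpd and 706 to 732 of Cebpb. Klf4 and Klf2 share at most 14 bases, at positions 1375 to 1388 of Klf4 and 988 to 1001 of Klf2. Both stretches are shown because the Cebpd rise and the unequal Klf4 and Klf2 values rest on reads being assigned to 1 paralog.
Cebpd and Cebpb: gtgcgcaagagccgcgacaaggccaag
Klf4 and Klf2: ccctttcagtgcca
The longest stretch was 14 bases for Cebpd and Cebpa and 18 for Spi1 and its closest relative Spib, so none of these pairs has a long identical run in its coding part.

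Maf (NM_001025577; chromosome 8, 115703253 to 115706894, minus strand, protein-coding) fell most. It stood at 115 and 111 CPM with SGA360+LPS and 114 and 109 CPM with LPS, against 312 and 259.9 CPM in vehicle. The 4 LPS-treated libraries spanned a narrow range well below both vehicle libraries. The log2 fold change was -1.36 (SE 0.10; adjusted p = 1.94e-06) for LPS against vehicle, -1.35 (SE 0.10; adjusted p = 2.22e-06) for SGA360+LPS against vehicle, and 0.01 (95% interval -0.21 to 0.23) for SGA360+LPS against LPS. Its span overlaps the antisense gene Gm15655, whose reads cannot be told apart from its own without strand.

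Because Spi1 rose while Maf fell, their ratio within a library moved by more than either level, and it does not depend on the scaling between libraries. Per base of exon, Spi1 had 18.2 and 18.5 times as many reads as Maf with SGA360+LPS and 18.7 and 17.7 times with LPS, against 2.60 and 3.71 times in vehicle. The ratio of Cebpd to Maf was 2.73 and 2.36 with SGA360+LPS, 2.82 and 2.38 with LPS, and 0.268 and 0.317 in vehicle. Cebpd thus had fewer reads per base than Maf in both vehicle libraries and more in the other 4.

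Klf4 (NM_010637; chromosome 4, 55527137 to 55532475, minus strand, protein-coding), a zinc finger factor of monocyte differentiation, stood at 37.8 and 33.6 CPM with SGA360+LPS and 24.3 and 30.2 CPM with LPS, against 52.2 and 61.1 CPM in vehicle. The 3 groups did not overlap, with LPS lowest and SGA360+LPS between LPS and vehicle. For LPS and vehicle this held for 65.9% of all tested genes. The log2 fold change was -1.05 (SE 0.15; adjusted p = 0.000307) for LPS against vehicle and -0.67 (SE 0.14; adjusted p = 0.00509) for SGA360+LPS against vehicle. Without SGA360+LPS replicate 2 the second value was -0.57 and did not pass (adjusted p = 0.0831 by edgeR; the alternatives spanned 7.76e-05 to 0.0831).

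Klf2 (NM_008452; chromosome 8, 72319062 to 72321654, plus strand, protein-coding), its paralog, stood at 61.1 and 51.4 CPM with SGA360+LPS and 58.7 and 45.3 CPM with LPS, against 56.9 and 52.6 CPM in vehicle. The groups overlapped throughout, and replicate 1 was the higher library in each. Its log2 fold change was -0.08 for LPS against vehicle (SE 0.14; adjusted p = 0.712; 95% interval -0.40 to 0.24) and 0.04 for SGA360+LPS against vehicle (SE 0.14; adjusted p = 0.866; 95% interval -0.28 to 0.36). These intervals span 0.759-fold to 1.18-fold and 0.824-fold to 1.28-fold, so changes of Klf2 within these ranges were not excluded here. Per base, Klf2 had 2.71 and 2.56 times as many reads as Klf4 with SGA360+LPS, 4.04 and 2.51 times with LPS, and 1.83 and 1.44 times in vehicle, and both LPS-treated groups lay above vehicle in this ratio.

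Of the 9 factors, 5 had an entry in the RefSeq promoter table (GRCm38.p6), and of the 6 tested ones these are Klf4 and Klf2. Their 250 bases before the start are shown, since the paralogs differed in what was called. Capitals mark each match of CCNCNCCC on either strand, the box bound by KLF and SP proteins. The Klf4 sequence is chr4:55532476-55532725 on the minus strand, and the Klf2 sequence is chr8:72318812-72319061 on the plus strand.
Klf4: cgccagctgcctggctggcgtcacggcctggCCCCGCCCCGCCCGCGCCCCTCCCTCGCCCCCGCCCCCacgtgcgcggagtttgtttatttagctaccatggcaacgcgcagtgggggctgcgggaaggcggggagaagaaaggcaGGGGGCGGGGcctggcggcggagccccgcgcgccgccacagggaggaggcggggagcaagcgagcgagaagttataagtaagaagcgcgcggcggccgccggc
Klf2: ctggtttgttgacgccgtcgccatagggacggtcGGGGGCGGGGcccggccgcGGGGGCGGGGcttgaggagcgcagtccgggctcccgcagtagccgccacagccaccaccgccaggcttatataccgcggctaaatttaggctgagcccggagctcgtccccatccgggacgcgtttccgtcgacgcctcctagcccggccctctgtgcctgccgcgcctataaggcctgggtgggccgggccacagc
Both are rich in G and C, at 74.0% for Klf4 and 71.2% for Klf2, where the median of all 32851 promoters in the table was 52.4%. The box had 9 overlapping matches in Klf4 and 4 in Klf2, and 45.9% of all promoters held at least 1. The class B E-box CACGTG, the site type that BHLHE40 binds, had 1 match in Klf4, 182 bases before the start and sharing its first base with the capitals, and 0 in Klf2; 6.02% of all promoters held it. The AP-1 type site TGANTCA, held by 6.75% of all promoters, and the NF-kB type site, held by 4.65%, matched neither window on either strand. A match in such a window is a description of letters and says nothing about binding in these cells.

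Bhlhe40 (NM_011498; chromosome 6, 108660629 to 108666925, plus strand, protein-coding), the helix-loop-helix repressor, stood at 243 and 259.8 CPM with SGA360+LPS and 224 and 229 CPM with LPS, against 321 and 313 CPM in vehicle. The 3 groups did not overlap, again with LPS lowest and SGA360+LPS in between, where LPS and vehicle did not overlap for 65.9% of all tested genes. The log2 fold change was -0.48 (SE 0.07; adjusted p = 0.000302) for LPS against vehicle and -0.33 (SE 0.07; adjusted p = 0.00334) for SGA360+LPS against vehicle. Without SGA360+LPS replicate 1 the second value was -0.26 and did not pass (adjusted p = 0.0886 by edgeR; the alternatives spanned 0.000779 to 0.0886). The 5' end of its span overlaps the antisense gene 0610040F04Rik.

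The comparison of SGA360+LPS with LPS asks what the receptor ligand did under the endotoxin. Klf4 and Bhlhe40 were the 2 factors whose libraries did not overlap between these groups, both higher with SGA360, where 39.5% of all tested genes had groups that did not overlap and 19.9% were higher without overlap. Klf4 had a log2 fold change of 0.38 (SE 0.15; 95% interval 0.05 to 0.72; unadjusted p = 0.0295; adjusted p = 1 by edgeR), and 0.24 without LPS replicate 1. Bhlhe40 had 0.15 (SE 0.07; unadjusted p = 0.0533; adjusted p = 1 by edgeR), and Klf2 had 0.12 (SE 0.14; adjusted p = 1 by edgeR). In the fit on these 2 groups alone, where the shared spread was smaller (common biological coefficient of variation 0.0540, against 0.0951 over all libraries), adjusted p was 0.399 for Klf4 and 0.523 for Bhlhe40. Over all alternatives it ran from 0.369 to 1 and from 0.523 to 1. Of the 6 factors, 0 were called by edgeR, limma-voom or DESeq2, which gave no adjusted p for Klf2 and Klf4. In edgeR 1 had an unadjusted p under 0.05, as had 276 of all 9389 tested genes.

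**Figure D2:**
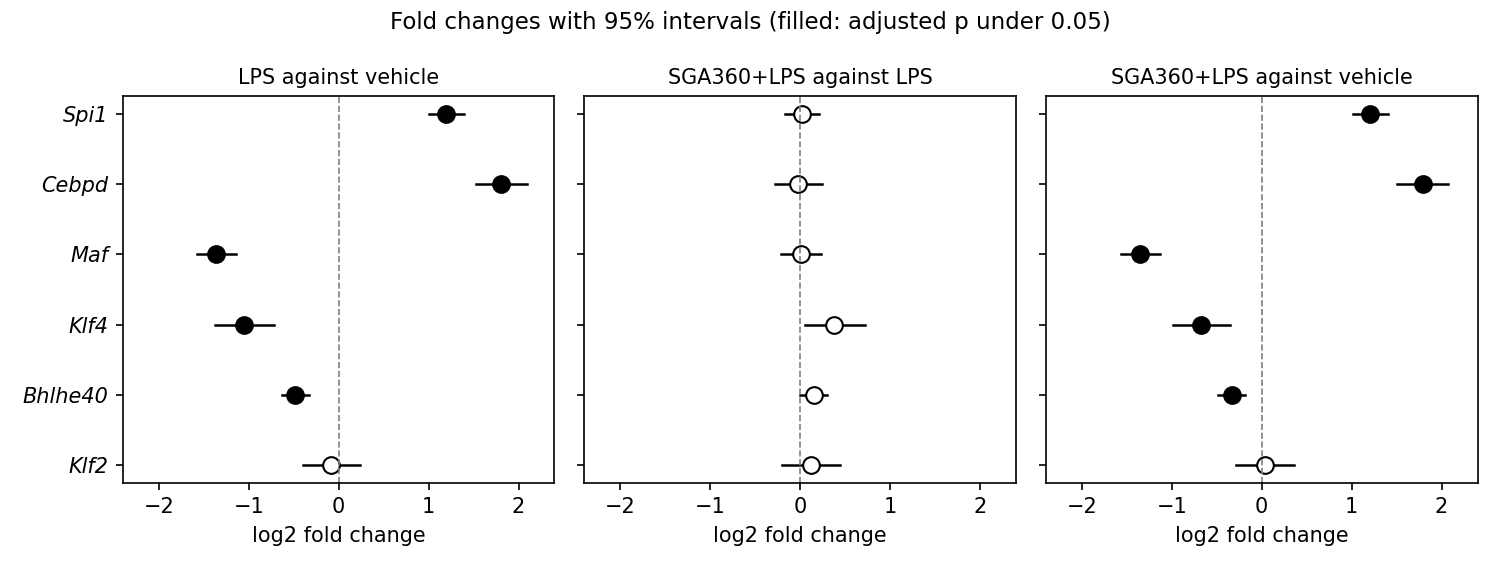
Log2 fold change of each tested factor (horizontal axes) with its 95% interval in LPS against vehicle, SGA360+LPS against LPS and SGA360+LPS against vehicle; filled points have an adjusted p under 0.05. For SGA360+LPS against LPS every point is open, with Klf4 farthest to the right at 0.38.

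SGA360+LPS against vehicle shares its libraries with both other comparisons. There 2 factors rose and 3 fell, where 17.9% of all tested genes rose and 15.2% fell, 33.1% in all. Spi1 and Cebpd were higher and Maf, Klf4 and Bhlhe40 lower, with the values given above.

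The LPS-treated cultures differed from vehicle in other ways that move with these factors. Of 8 tested mesothelial markers 3 were called down with LPS and 0 up, where 17.0% of all tested genes fell. Among them Lrrn4 fell most in CPM, to 74.2 and 88.2 in LPS, against 176.9 and 157 in vehicle. Wt1 (-0.09) and Krt19 (-0.09) were among the mesothelial markers not called. Of 6 tested fibroblast markers 1 was called down. Of 9 tested macrophage markers 2 rose (Cd14 and Adgre1) and 3 fell (Mertk, Fcgr1 and Csf1r). Over all tested genes 19.4% rose and 17.0% fell, and each marker count in this paragraph is to be read beside these shares. The 8 neutrophil markers summed to 206 and 241 CPM in SGA360+LPS and 243 and 246 in LPS, against 59.0 and 64.3 in vehicle, with S100a9 and Ly6g at 0 and 2 of 5 tested called up. Mmp9 alone made up most of this sum, at 180.05 and 214 CPM in SGA360+LPS and 217 and 213 in LPS, against 34.0 and 32.7 in vehicle. The other called marker, Camp, had at most 2.53 CPM in any library, while Mmp8 (-0.59) and Retnlg (-0.43) were not called. The 8 T and NK cell markers summed to 93.7 and 99.5 CPM in SGA360+LPS and 88.3 and 95.7 in LPS, against 253 and 221 in vehicle, with Lck and Klrb1c at 0 and 1 of 2 tested called down. Il7r alone carried that sum, at 88.9 and 95.4 CPM in SGA360+LPS and 83.7 and 92.8 in LPS, against 244 and 217 in vehicle. Each of the other markers had at most 3.02 CPM in any library, and Cd2 was not called (-0.41, adjusted p = 0.618 by edgeR). S100a9, Lck and Klrb1c have several transcript rows each, and their 0 is not read here as a lack of expression. Fewer cells of a type and less RNA per cell cannot be told apart in bulk RNA, and the part of these other cells in the values of the 6 factors was not tested. Without vehicle replicate 1, the library that stood apart, the same 5 factors were called with LPS, with log2 fold changes of 1.09 for Spi1, 1.84 for Cebpd, -1.20 for Maf, -1.14 for Klf4 and -0.45 for Bhlhe40.

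Levels of different genes were compared per length, as RPKM, the CPM divided by the exon length in kilobases. Spi1 was highest in every group, at 566 ± 7.13 RPKM with SGA360+LPS, 558 ± 37.9 with LPS and 244 ± 29.3 in vehicle (SD, n = 2). In vehicle Bhlhe40 (101.7 ± 1.92 RPKM), Maf (78.5 ± 10.2), Klf2 (30.1 ± 1.68), Cebpd (22.8 ± 0.272) and Klf4 (18.6 ± 2.06) followed, and no neighbours in this order overlapped. With LPS, Cebpd (79.9 ± 11.8 RPKM) and Bhlhe40 (72.7 ± 1.08) overlapped, then Maf (30.7 ± 0.932) and Klf2 (28.6 ± 5.21) overlapped, and Klf4 was lowest (8.94 ± 1.35). With SGA360+LPS, Bhlhe40 (80.6 ± 3.88 RPKM) and Cebpd (78.8 ± 10.1) overlapped, then Klf2 (30.9 ± 3.75) and Maf (30.9 ± 0.748), and Klf4 was lowest again (11.7 ± 0.981). Maf, above Klf2 and Cebpd in vehicle, had thus come level with Klf2 and below Cebpd in both LPS-treated groups.

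**Figure D3:**
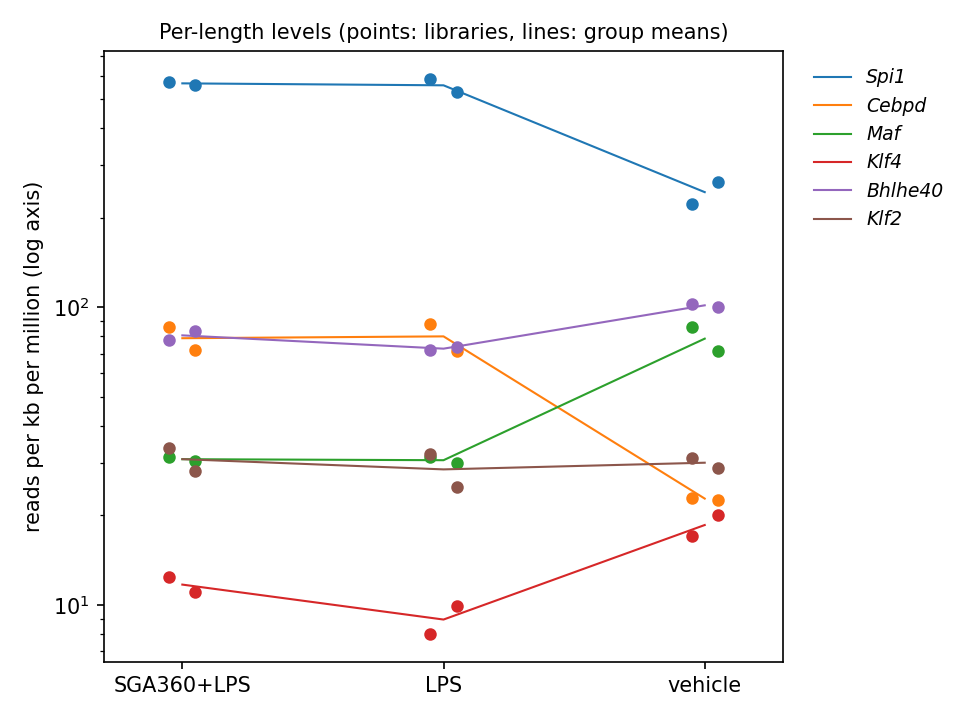
RPKM (log axis) of the 6 tested factors in the SGA360+LPS, LPS and vehicle groups; points are libraries and lines join the group means. The lines of Cebpd and Maf cross between LPS and vehicle, and Spi1 lies highest throughout.

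The closest relatives of these factors, and other transcription factors of myeloid cells, were examined as 6 lists with 58 genes in all, of which 37 could be tested. With LPS 12 rose, 10 fell and 15 were not called (median log2 fold change 0.27, against -0.01 over all tested genes). Over all tested genes 19.4% rose and 17.0% fell. With total counts in place of TMM, which moved the median of all genes to -0.14, 8 rose and 12 fell. There 13.6% of all tested genes rose and 23.2% fell. The separate lists below are to be read beside these shares, and all lists were chosen with earlier results of these data known. In SGA360+LPS against LPS 0 of the 37 were called by edgeR, DESeq2 (which gave no adjusted p for 24) or limma-voom. By edgeR 0.0746% of all tested genes were called there. An unadjusted p under 0.05 in edgeR was found for 2 of the 37 and for 276 of all 9389 tested genes.

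The small MAF proteins, which lack an activation domain, did not follow Maf, which fell. Of 3 tested, 2 rose with LPS and 0 fell by edgeR. Mafg rose by 0.88 (SE 0.09), with 115 ± 5.46 CPM with SGA360+LPS and 112 ± 5.54 CPM with LPS, against 60.7 ± 2.20 CPM in vehicle (SD, n = 2). Maff, which has 4 transcript rows, rose by 2.47 (SE 0.72) from few counts, and Mafk was at 0.31 (adjusted p = 0.0809 by edgeR).

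Among ETS factors 4 of 9 tested rose and 2 fell (2 and 2 with total counts). Ets2, an ETS factor activated through growth factor signalling, reached 444 ± 5.34 CPM with LPS, against 66.8 ± 10.9 CPM in vehicle (log2 fold change 2.73, SE 0.10). Spib, the nearest relative of Spi1, rose by 1.23 (SE 0.16), close to the value of Spi1, while Fli1, a factor of blood and vessel cells, fell by 1.70 on the log2 scale (SE 0.15). Of 9 other KLF genes 3 rose and 2 fell, and 2 rose and 3 fell with total counts. Klf6, the most abundant, rose to 507 ± 26.9 CPM with LPS, against 305 ± 11.2 CPM in vehicle (0.74, SE 0.07), Klf7 rose by 1.37 (SE 0.21) and Klf11 fell by 1.31 (SE 0.36). Without vehicle replicate 1 the KLF counts were 3 and 1.

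In the C/EBP family Cebpg, a partner without an activation domain of its own, fell by 0.47 (SE 0.08; adjusted p = 0.00136 by edgeR), and Cebpe was not called. Of 7 other IRF genes only Irf2 and Irf4 could be tested and 0 were called; Irf2 had a log2 fold change of 0.13 (adjusted p = 0.311 by edgeR). The other 5 have several rows each. Among 12 tested factors of the last list 3 rose and 5 fell. Tfec, a relative of MITF in macrophages, rose by 2.67 (SE 0.15), Id2, an inhibitor of helix-loop-helix factors, by 0.80 (SE 0.07), and Egr1, an immediate early zinc finger factor, fell by 1.04 (SE 0.11). Without vehicle replicate 1, 4 of 13 rose and 7 fell.

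**Figure D4:**
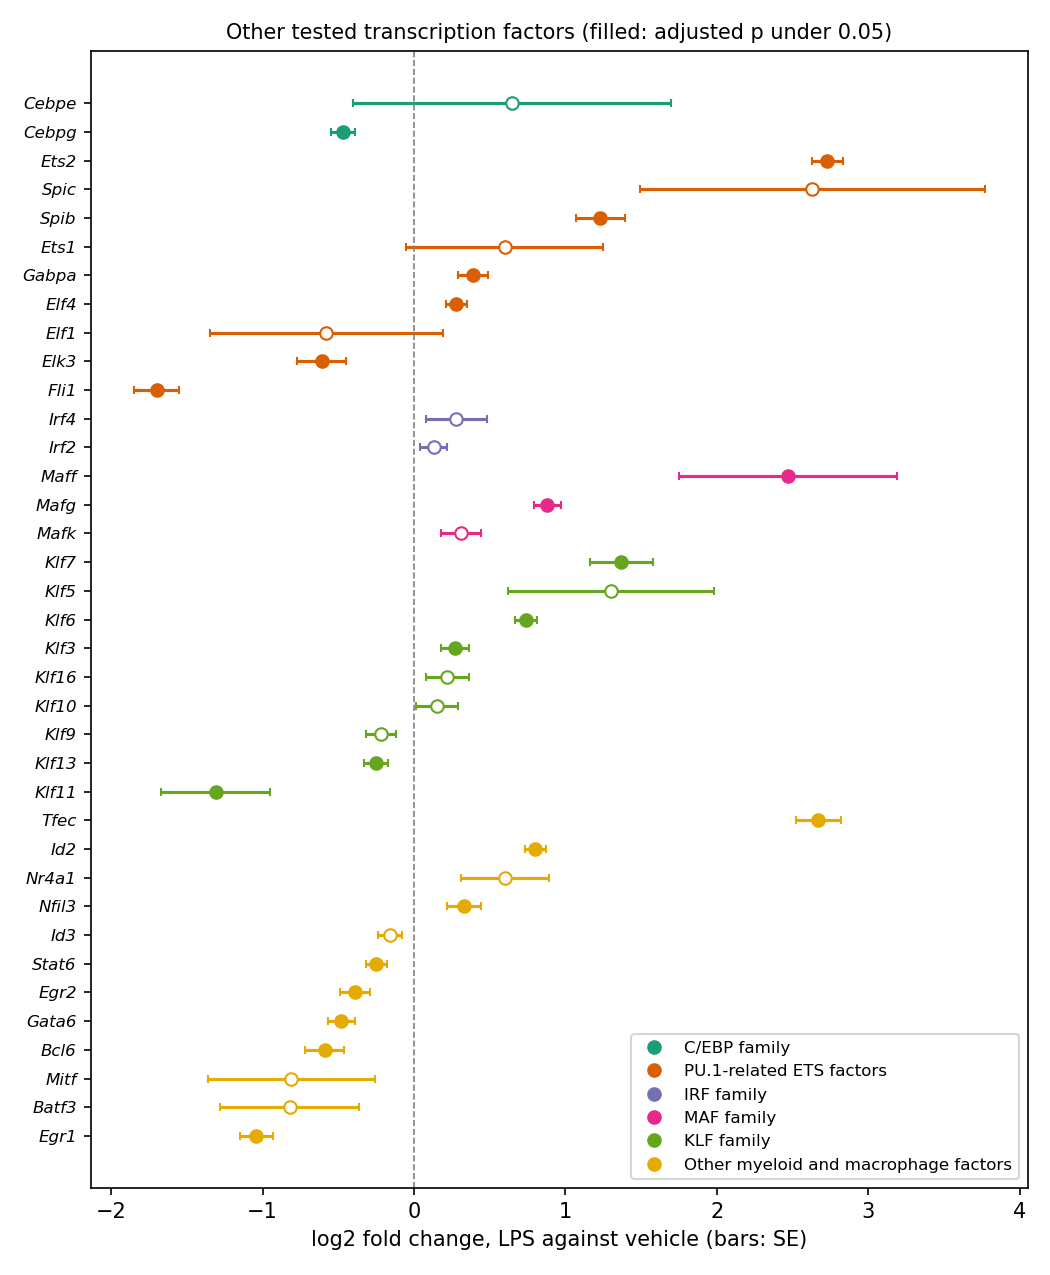
Log2 fold change for LPS against vehicle (horizontal axis, bars are SE) of the 37 tested factors of the 6 lists, grouped by list; filled points have an adjusted p under 0.05. Fli1 is farthest to the left at -1.70, and Ets2 and Tfec are the filled points farthest to the right, at 2.73 and 2.67.

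Genes known as targets of these factors were followed in 4 more lists. With LPS 19.4% of all tested genes rose and 17.0% fell, and with total counts 13.6% rose and 23.2% fell. Each list is to be read beside these shares. The lists were chosen with earlier results of these data known, so their counts do not test the activity of the factors. All 4 tested genes of the MAF list fell with LPS, also with total counts: Mrc1, the mannose receptor, was at 153 ± 10.5 CPM with SGA360+LPS and 159.6 ± 14.7 CPM with LPS, against 292 ± 3.86 CPM in vehicle (SD, n = 2). C1qc fell by 0.69 (SE 0.07), C1qa by 0.57 (SE 0.08) and C1qb by 0.51 (SE 0.06), the 3 chains of complement C1q. The median of the list was -0.63, against -0.01 over all tested genes, and without vehicle replicate 1, 4 of 5 fell. Of the other 4 genes of the list, Il10 and Lyve1 had too few counts to be tested, and Cd163 and Cd36 have several rows.

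The targets of PU.1 and C/EBP went both ways while Spi1 and Cebpd rose. Of 15 tested genes 5 rose, 5 fell and 5 were not called, with a median of 0.05, where 19.4% of all tested genes rose and 17.0% fell. With total counts 4 rose and 7 fell, where 13.6% of all tested genes rose and 23.2% fell. Cd14, the LPS co-receptor, rose by 2.98 (SE 0.07) and Cybb, the catalytic subunit of the phagocyte oxidase, by 2.36 (SE 0.06). Fcgr1, an Fc receptor, fell by 2.39 (SE 0.12), and Csf1r, the receptor of macrophage colony-stimulating factor, was at 632 CPM with SGA360+LPS and 603 CPM with LPS, against 762 CPM in vehicle (-0.34, SE 0.08; adjusted p = 0.00917 by edgeR).

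Of 7 tested genes on the IRF8 list 3 rose and 1 fell (3 and 2 with total counts). Il12b, encoding the p40 cytokine subunit, rose by 8.15 (SE 0.15), the interferon-inducible Ifit3 by 3.03 (SE 0.33), and Naip5, a sensor of flagellin, fell by 1.17 (SE 0.15). Among 6 tested genes linked to KLF2 and KLF4, 2 rose and 2 fell (3 and 2 without vehicle replicate 1). The sphingosine receptor gene S1pr1 fell by 2.11 (SE 0.13) and the thrombomodulin gene Thbd by 1.27 (SE 0.12), while Timd4, a receptor for dying cells, rose by 1.29 (SE 0.40; adjusted p = 0.0288 by edgeR) from few counts. In SGA360+LPS against LPS, edgeR called 0 of the 32 tested genes of these 4 lists and 0.0746% of all tested genes. In edgeR 4 of the 32 had an unadjusted p under 0.05, as had 276 of all 9389 tested genes. DESeq2 called 2 of the 32 and limma-voom 1. Il12b stood at 155 and 152 CPM with SGA360+LPS, against 219 and 217 CPM with LPS. These groups did not overlap, and the log2 fold change of -0.51 (SE 0.08) had an adjusted p of 0.0998 by edgeR, 0.00142 by DESeq2, 0.0402 by limma-voom and 0.000973 by edgeR without vehicle replicate 1. With total counts it was 0.219. Cd14 was at -0.26 (SE 0.07), with an adjusted p of 1 by edgeR and 0.0482 by DESeq2.

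Genes with the most similar pattern were sought by Pearson's r of log2 CPM over the 6 libraries among 7357 genes with a mean of at least 5 CPM. Since the libraries form groups, high r is common: 911 genes reached an r of at least 0.95 with Spi1, 835 with Cebpd, 748 with Maf, 412 with Bhlhe40, 164 with Klf4 and 4 with Klf2. For Maf the nearest was C1qb (r = 0.9993), a gene of its own target list, at 1214 and 1176 CPM with SGA360+LPS and 1197 and 1172.5 CPM with LPS, against 1740.0 and 1633 CPM in vehicle. Bcas2 (0.9984) and Hlcs (0.9983) followed. As that target list was chosen with earlier results of these data known, the rank of C1qb does not test a link to Maf. For Spi1 the nearest were Rcn1 (0.9999), Eif6 (0.9989) and Lrrc59 (0.9984), and for Cebpd Pgs1 (0.9986), Rrs1 (0.9979) and Ran (0.9974). Klf4 was most like Pqlc2 (0.9986), Cntrob (0.9976) and Themis2 (0.9947), each with its SGA360+LPS libraries between LPS and vehicle. For Bhlhe40 these were Ergic1 (0.9950), Tomm40l (0.9943) and Plekhm1 (0.9941), and for Klf2 Pet100 (0.9911), Taf10 (0.9779) and Sephs2 (0.9716). These values describe only 6 libraries, among which vehicle replicate 1 stood apart.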

How the data were processed

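PolyA RNA of 6 libraries in 3 groups was analysed from 1 deposited table of raw read counts per RefSeq transcript row (34751 rows, 24454 symbols). The mm10 build, HTSeq 0.5.4p3 and TopHat2 2.0.13 are named, per the submitters' processing notes. Annotation release, strand setting and the treatment of reads matching several rows: not given in the sources used here.

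The deposited counts were summed per symbol. Genes kept by filterByExpr (minimum count 10; 9389 genes) were scaled by TMM and tested with edgeR 4.0.16 (quasi-likelihood test, all 6 libraries in 1 fit, group as the only factor, R 4.3.3), with Benjamini-Hochberg adjustment over all 9389 genes and a threshold of 0.05. Sequences came from RefSeq (GRCm38.p6) and GENCODE M21. The fitting script was tested on simulated data.

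The alternatives were DESeq2 1.42.0 (Wald test and size factors), limma-voom (limma 3.58.1), no filter, a mean of at least 5 CPM, a replicate block, only the 2 groups compared, rows one by one, a threshold of 0.01 and each library left out. Scaling by total counts was added after seeing the data.

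The 9 factors, the lists and the marker genes were chosen with earlier results of these data known. From each list up to 3 called genes with a mean of at least 1 CPM were named by the size of their log2 fold change in LPS against vehicle, or the most abundant tested gene where none was called. For each factor the 3 genes with the most similar pattern were named, predicted genes left out. Csf1r, Mafk, Cebpe and Irf4 were named after their values were seen. Some genes of the lists are not reported here and were left out of the list counts.

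Replicates differed by more than sampling noise in each group (mean chi-square per gene 4.12 in SGA360+LPS, 6.14 in LPS and 43.7 in vehicle). No library was therefore treated as the same library sequenced again. These values do not tell if replicates stem from different animals or culture dishes.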

Additional observations from a re-analysis of the deposited data

How the results depend on the processing

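Each fold change of the 6 tested factors was recomputed under up to 16 alternatives. Direction and side of the threshold were kept in 95 of 96 values for LPS against vehicle, 87 of 94 for SGA360+LPS against LPS and 91 of 96 for SGA360+LPS against vehicle. The sign changed only where the fold change was small and not called. With 1 library left out, SGA360+LPS against LPS ran from -0.04 to 0.09 for Spi1, -0.16 to 0.13 for Cebpd, -0.02 to 0.04 for Maf, -0.06 to 0.31 for Klf2, 0.24 to 0.55 for Klf4 and 0.10 to 0.20 for Bhlhe40. Klf4 was lowest without LPS replicate 1, and Bhlhe40 without SGA360+LPS replicate 2. Klf2 ran from -0.25 to 0.12 for LPS against vehicle and from -0.07 to 0.18 for SGA360+LPS against vehicle, where it was -0.07 with total counts. The factors called numbered 5 in LPS against vehicle and 0 in SGA360+LPS against LPS under every alternative, and 5 in SGA360+LPS against vehicle except for 4 without SGA360+LPS replicate 1 (Bhlhe40 lost) or replicate 2 (Klf4 lost). Over all genes, the 3413 called in LPS against vehicle became 2216 at a threshold of 0.01 and 2091 to 5494 with 1 library left out. The 3107 called in SGA360+LPS against vehicle became 2050 (the figure at a threshold of 0.01) and 1831 to 5315. Most were called without vehicle replicate 2. The 7 called in SGA360+LPS against LPS became 11 with DESeq2, 17 with no filter, 12 with only the 2 groups compared, 4 at a threshold of 0.01, and 0 to 16 with 1 library left out. The cause was not tested. The labels do not say if replicate numbers pair the samples. Deviations of replicate 1 correlated at 0.272 between SGA360+LPS and LPS, so these 2 groups shared some structure by replicate number. The correlation was 0.00849 between SGA360+LPS and vehicle and 0.0012 between LPS and vehicle. With the replicate block 3434, 5 and 3136 genes were called in LPS against vehicle, SGA360+LPS against LPS and SGA360+LPS against vehicle, and 5, 0 and 5 of the factors.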
